A study of Rattus norvegicus with 6 samples.

Results

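The two-pore, inward-rectifier, calcium-activated and sodium-activated potassium channels of rat dorsal root ganglia (DRG) were examined after chronic constriction injury (CCI) of the sciatic nerve. Members were all gene symbols of the Kcnj, Kcnk, Kcnma, Kcnmb, Kcnn, Kcnt and Kcnu series in the table, with 1 gene row for each symbol. This gave 41 members among 27943 symbols. The rule itself used no measured difference between groups, although members and lists were chosen with earlier results of these data known. Two-pore members numbered 14, inward rectifiers 15, calcium-activated channels and their subunits 9 and sodium-activated channels 2, and the remaining member was Kcnu1, the sperm channel Slo3. Of the 41 members, 32 passed the expression filter and were tested, and 9 were weakly expressed.

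RNA of L4–6 DRG on the injured side was sequenced in 6 libraries, each from 1 male Sprague-Dawley rat by the study's methods, 6 to 8 weeks old when acquired, and ganglia were taken 11 days after surgery. In the CCI group (n = 3) the left sciatic nerve was loosely tied, and in the sham group (n = 3) the nerve was exposed and left untied, although the labels give the sham treatment as none. Sham rats therefore share the skin and muscle opening with CCI rats, and an untouched group was not analysed here. The ganglia were whole tissue, so neurons, satellite glia, Schwann cells, immune cells and vessels were read together, and fewer cells of a type cannot be told apart from less RNA per cell. Both groups carry no transgene or drug treatment in the labels.

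Potassium channels set the resting potential of sensory neurons and end their action potentials, and loss of potassium current makes a neuron easier to excite. Two-pore channels carry background leak currents, inward rectifiers pass current near rest and answer to G proteins, ATP or PIP2, and the calcium- and sodium-activated channels open during or after firing. In DRG, TREK-type and TRESK two-pore channels are known from nociceptors, Kir4.1 from satellite glia, and BK and Slack channels from several classes of neurons.

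Total counts per library ranged from 75423546 to 87615743, at which 3 counts correspond to 0.0342 to 0.0398 CPM, the count scaled to the library total. Markers of general sensory neurons were present in every library, with a summed level of 11370 to 13050 CPM in CCI and 13190 to 14250 CPM in sham, and of these 11 genes 2 were higher and 2 lower at p under 0.05. All 8 nerve injury genes were called higher in CCI, with summed levels of 444.9 to 767.6 CPM against 186.8 to 197.9 CPM. Of 11 macrophage markers, 7 were called higher, with sums of 121.1 to 185.3 CPM in CCI and 85.61 to 111.5 CPM in sham. Of 9 skeletal muscle markers, 6 were called lower, 1 of them Pvalb, which also marks large neurons, and sham 1 stood apart with a sum of 506.5 CPM, where the other two sham libraries had 74.38 and 122.8 CPM and the CCI libraries 54.11 to 64.65 CPM. Their part in the results below was not tested, and values with each library left out are given for the members whose call or side of the unadjusted threshold changed.

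Levels are given as FPKM, counts scaled to the length of the gene row and the library total, so that levels of different genes can be compared. Fold changes are log2 ratios of CCI over sham from edgeR's quasi-likelihood test on the counts, with the standard error (SE), and adjusted p-values use the Benjamini-Hochberg method over all 26663 tested rows. A gene was called where its unadjusted p was under 0.05 and its log2 fold change was at least 0.58 in size. By that rule no member was called higher (0 of 32, beside 2.57% of all tested rows) and 1 was called lower (Kcnj4, 3.12% of 32, beside 1.26% of all tested rows). Kcnj4 passed the filter of 0.5 FPKM only through the sham group, so nothing is read from that share. It also counts in the shares of lower members and of estimates below 0 that follow, which carry the same limit. At p under 0.05 and any fold, 2 members rose (6.25%, beside 5.57%) and 3 fell (9.38%, beside 5.18%). Kcnk2 and Kcnmb4 were the 2 that rose, and Kcnk4, Kcnk1 and Kcnj4 were the 3 that fell. After adjustment 0 members passed 0.05 in edgeR, beside 0.0938% of all rows, while DESeq2's Wald test on the same counts gave 2 such members, Kcnk2 and Kcnk4, beside 3.07% of all rows that had an adjusted value in DESeq2. The 3 libraries of each group did not overlap in FPKM for 3 members that were higher in CCI (9.38%, beside 9.73% of all rows) and 7 that were lower (21.9%, beside 7.56%). With scaled CPM in place of FPKM the 7 became 9 (28.1%, beside 8.7%), Kcnj11 and Kcnn2 being added. Estimates were below 0 in 22 of 32 members (68.8%, beside 49% of all rows), and the median log2 fold change was −0.09, with 0.00553 over all rows. Some estimates near 0 changed sign with a library left out, such as Kcnj5 and Kcnmb1 below 0 and Kcnj9 and Kcnn4 above 0.

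**Figure D1:**
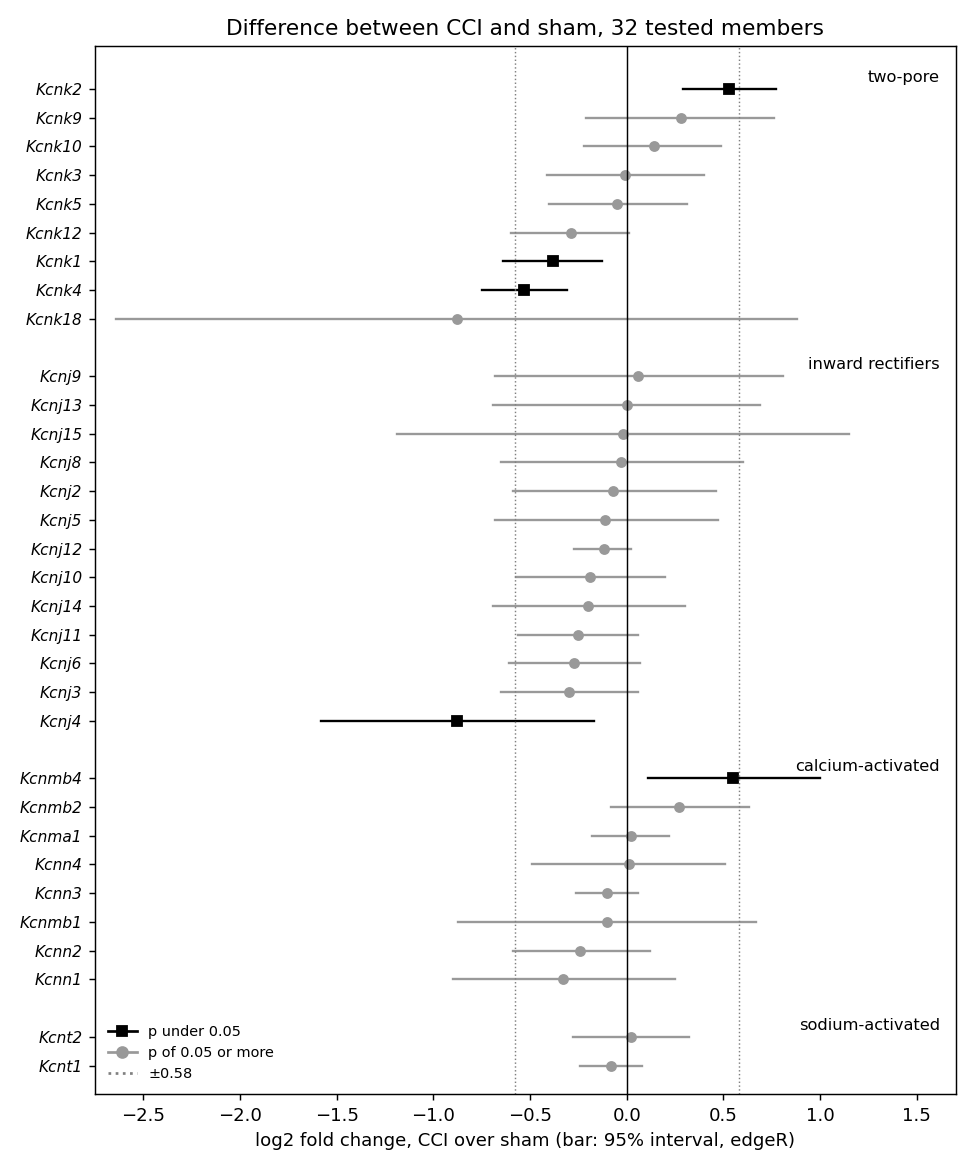
Log2 fold change of CCI over sham (x axis) for the 32 tested members (y axis, grouped by family), with 95% intervals from edgeR, black squares marking p under 0.05 and dotted lines at ±0.58. The 5 black intervals exclude 0, and 11 of the 32 intervals lie between the dotted lines.

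Two-pore channels held members that moved in both directions. Of 9 tested members, Kcnk2 rose and Kcnk4 and Kcnk1 fell at p under 0.05, where 5.57% of all rows rose and 5.18% fell. None was called at the fold threshold, beside 2.57% of all rows called higher and 1.26% called lower. Kcnk1 (TWIK-1), a weak background channel, had the highest FPKM of all members. The summed FPKM of the two-pore family was 30.4 ± 4.20 (SD, n = 3) in CCI and 34.8 ± 1.40 (SD, n = 3) in sham, and the 2 groups overlapped, since CCI 3 stood at 35.2.

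Kcnk2 encodes TREK-1, a leak channel opened by stretch, heat, arachidonic acid and membrane lipids, and it lies on the minus strand of chromosome 13 from 107690087 to 107886476 in the rat build that the authors name V101, a span that holds exons and introns. The FPKM of Kcnk2 was 4.07, 4.78 and 4.82 in CCI 1 to 3 and 3.29, 3.18 and 2.88 in sham 1 to 3. Every CCI library was above every sham library. Kcnk2 rose by 0.53 ± 0.10 (SE) on the log2 scale, a fold of 1.44, with an interval from 0.29 to 0.77 (adjusted p = 0.15, edgeR's quasi-likelihood test). The estimate stayed between 0.48 and 0.60 with any 1 library left out, and passed the unadjusted threshold each time. DESeq2's Wald test gave adjusted p = 0.00228 for the same counts, and over the other alternatives the value ranged up to 0.397.

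Kcnk4 encodes TRAAK, a stretch- and heat-sensitive relative of TREK-1, and its row lies on the minus strand of chromosome 1 from 222179436 to 222191661. This row joins Kcnk4 with its neighbour Catsperz, a sperm calcium channel subunit, so that reads of both genes are counted together. The FPKM was 2.23, 2.01 and 2.11 in CCI 1 to 3 and 3.08, 2.76 and 3.22 in sham 1 to 3. All 3 CCI libraries were below all 3 sham libraries, the reverse of the order of Kcnk2. Kcnk4 fell by 0.53 ± 0.09 (SE) on the log2 scale, a fold of 0.693, with an interval from −0.75 to −0.31 (adjusted p = 0.122, edgeR's quasi-likelihood test). This was the lowest p among the members, and leaving out 1 library kept the estimate between −0.58 and −0.47. DESeq2's Wald test gave adjusted p = 0.000738, and other alternatives gave values up to 0.349.

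The third member of this subfamily, Kcnk10 (TREK-2), had 3.32, 3.11 and 2.80 FPKM in CCI and 2.71, 2.37 and 3.22 FPKM in sham. The groups overlapped and the log2 fold change was 0.14, with an interval from −0.22 to 0.49 (adjusted p = 0.822, edgeR's quasi-likelihood test). Further rows under its symbol lie within its span. Their log2 fold changes were −0.45, −0.45 and 0.41 (adjusted p = 0.49, adjusted p = 0.621 and adjusted p = 0.892, edgeR's quasi-likelihood test). The 3 channels together held 9.75 ± 0.142 FPKM in CCI and 8.91 ± 0.526 FPKM in sham (SD, n = 3). The ratio of Kcnk2 to Kcnk4 FPKM was 1.83, 2.38 and 2.28 in the CCI libraries and 1.07, 1.15 and 0.893 in the sham libraries, so the mean ratio was 2.16 in CCI and 1.04 in sham. Kcnk2 made up 15.1% ± 1.51 of the summed two-pore FPKM in CCI and 8.98% ± 0.966 in sham (SD, n = 3). These ratios were formed from members already known to differ and were given no test.

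The start windows of Kcnk2 and Kcnk4 here, and of Kcnj4 and Kcnmb4 with their values, are shown so that the letters around these genes can be compared. They run from 250 bases before to 50 bases after each gene's start and come from RefSeq on the GRCr8 build, which is not the build of the count table. RefSeq windows were matched by symbol for 28 of the 41 members, in 31 windows, and Kcnk1 was not among them. Capitals mark matches on either strand to an AP-1 motif (TGANTCA), a CRE (TGACGTCA), a shortened CRE (TGACG, which every CRE also holds) or a GC box (GGGCGG). The Kcnk2 windows lie on the minus strand at chr13:103438593-103438892 and chr13:103494637-103494936, and the Kcnk4 window on the minus strand at chr1:213555812-213556111.
Kcnk2, downstream start: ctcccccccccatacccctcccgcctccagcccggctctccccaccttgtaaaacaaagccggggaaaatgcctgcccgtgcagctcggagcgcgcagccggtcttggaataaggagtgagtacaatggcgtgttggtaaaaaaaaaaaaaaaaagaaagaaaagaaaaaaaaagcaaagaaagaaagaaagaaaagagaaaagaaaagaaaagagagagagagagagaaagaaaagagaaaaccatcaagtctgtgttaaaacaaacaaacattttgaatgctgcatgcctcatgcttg
Kcnk2, upstream start: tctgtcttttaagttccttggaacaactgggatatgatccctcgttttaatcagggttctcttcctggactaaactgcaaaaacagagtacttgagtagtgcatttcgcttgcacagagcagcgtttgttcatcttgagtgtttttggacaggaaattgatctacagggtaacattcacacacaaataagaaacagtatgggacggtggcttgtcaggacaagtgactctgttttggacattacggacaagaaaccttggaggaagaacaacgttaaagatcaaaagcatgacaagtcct
Kcnk4: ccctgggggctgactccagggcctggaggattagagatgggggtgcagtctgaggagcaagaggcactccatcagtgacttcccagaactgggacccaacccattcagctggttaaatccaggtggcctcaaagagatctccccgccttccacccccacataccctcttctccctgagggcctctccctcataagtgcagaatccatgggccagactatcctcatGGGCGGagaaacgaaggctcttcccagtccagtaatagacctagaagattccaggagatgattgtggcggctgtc
Neither Kcnk2 window held any of the 4 motifs, and both were poor in G and C, at 44.3% and 41.7%, with 9 and 6 CpG pairs. The Kcnk4 window held 1 GC box and 56.7% G and C. Over all 33469 windows the median was 51.7% G and C, 7.33% held the AP-1 motif, 1.83% a CRE, 21.2% a shortened CRE and 33.1% a GC box. Of the 31 windows of members, 2 held the AP-1 motif, 0 a CRE, 6 a shortened CRE and 12 a GC box. A match gives letters only, and no binding was measured.

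Kcnk1 had 10.1, 10.5 and 12.5 FPKM in CCI 1 to 3 and 15.6, 13.0 and 14.0 FPKM in sham 1 to 3. The CCI libraries were all below the sham libraries, with CCI 3 close to sham 2. Kcnk1 fell by 0.38 ± 0.11 (SE) on the log2 scale, with an interval from −0.64 to −0.13 (adjusted p = 0.283, edgeR's quasi-likelihood test). Leaving out 1 library kept the estimate between −0.48 and −0.31 and past the unadjusted threshold. Kcnk1 held 36.3% of the summed two-pore FPKM in CCI and 40.9% in sham.

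Kcnk18 encodes TRESK, the calcineurin-regulated leak channel of sensory neurons, and it spread more widely than any other tested member. Its FPKM was 1.15, 0.968 and 5.48 in CCI 1 to 3 and 2.24, 5.90 and 5.66 in sham 1 to 3. CCI 1, CCI 2 and sham 1 were low, whereas CCI 3 was as high as sham 2 and sham 3, and the groups overlapped. The log2 fold change of −0.88 ± 0.73 (SE) had an interval from −2.64 to 0.88 (adjusted p = 0.753, edgeR's quasi-likelihood test), so a difference was not detectable at this spread. Without CCI 3 the estimate was −2.13 (adjusted p = 0.239, edgeR) and Kcnk18 was called lower at the unadjusted threshold, and without CCI 2 it was −0.49 (adjusted p = 0.888, edgeR). CCI 3 was also the CCI library with the lowest sum of nerve injury genes, 444.9 CPM against 512.7 and 767.6 CPM, and the part of this in the result was not tested. Over the alternatives run, the adjusted p of Kcnk18 ranged from 0.239 to 0.899. Nociceptor markers, whose cells are known to carry TRESK, summed to 2826 to 3187 CPM in CCI and 2983 to 3252 CPM in sham, with 0 of 9 called in edgeR or DESeq2 and 1 higher and 4 lower at p under 0.05 in edgeR. The 3 calcineurin genes listed for TRESK gave 0 calls in edgeR and in DESeq2 and 0 at p under 0.05 in edgeR, with a median log2 fold change of −0.03.

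**Figure D2:**
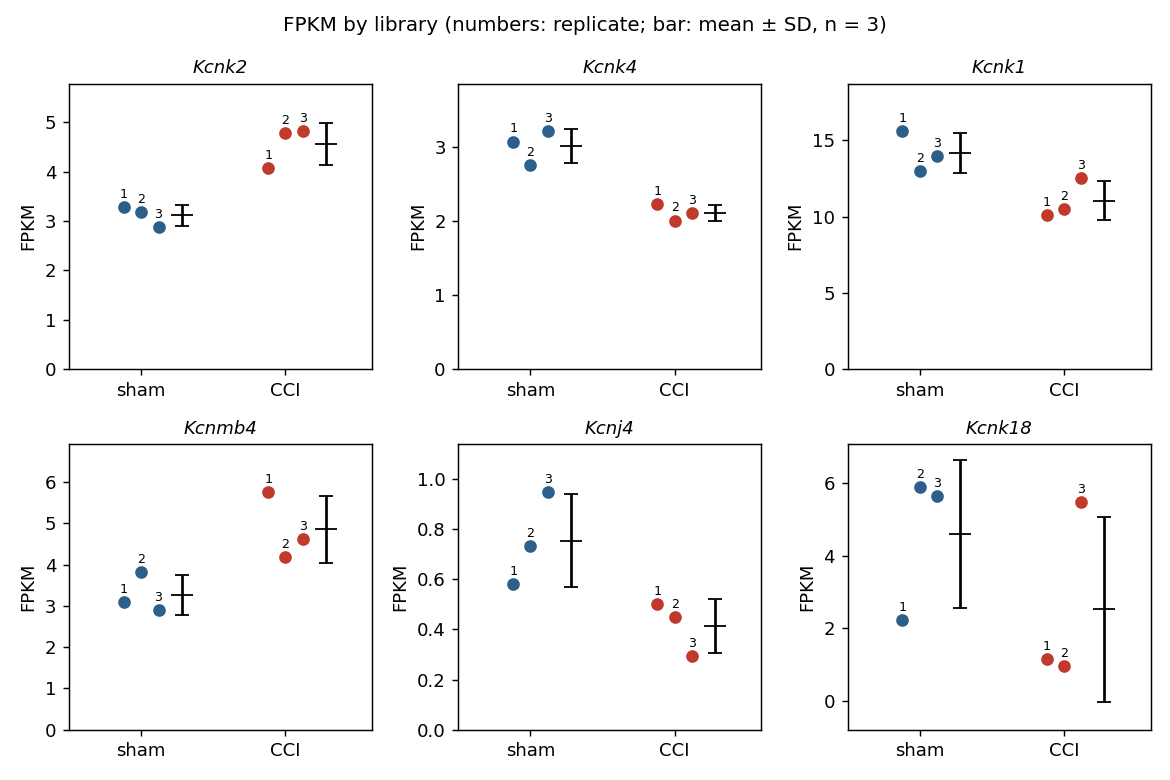
FPKM (y axis, linear) of 6 members in each library, by group (x axis). Points are single rats, numbered by replicate, and bars are the mean ± SD of 3 rats. In the Kcnk2 and Kcnmb4 panels all CCI points are above the sham points, in the Kcnk4, Kcnk1 and Kcnj4 panels they are all below, and in the Kcnk18 panel CCI 3 lies beside sham 2 and sham 3.

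Kcnk12 (THIK-2), a channel that gives little current by itself, had 2.52, 2.48 and 2.53 FPKM in CCI and 2.55, 3.43 and 3.14 FPKM in sham. All CCI libraries were below the sham libraries, although sham 1 was nearly level with them, and the log2 fold change of −0.29 did not pass (adjusted p = 0.479, edgeR's quasi-likelihood test). Without sham 1, the library with the high muscle markers, it was −0.41 and passed the unadjusted threshold (adjusted p = 0.345, edgeR), and without sham 2 it was −0.20. Its row is overlapped on the same strand by a row that joins Fbxo11 and Kcnk12, and on the opposite strand by 3 rows that carry its symbol. The acid-sensitive TASK channels Kcnk3 and Kcnk9 had mean levels of 1.77 and 0.911 FPKM and log2 fold changes of −0.01 and 0.28, and the alkaline-activated Kcnk5 (TASK-2) had 0.850 FPKM and −0.05. All 3 overlapped between groups. Kcnk9 lies within the row of Trappc9 on the same strand, so its count may hold reads of that gene.

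Of 13 tested inward rectifiers 1, Kcnj4, fell at p under 0.05 (beside 5.18% of all rows) and was called lower (beside 1.26%). As Kcnj4 passed the filter only through the sham group, nothing is read from these counts. Estimates were below 0 in 11 of the 13, Kcnj4 among them, beside 49% of all rows. Of these, Kcnj2, Kcnj5, Kcnj8 and Kcnj15 changed sign with a library left out. The median log2 fold change over the 13 was −0.12. All 15 inward rectifiers, the weakly expressed Kcnj1 and Kcnj16 included, had a summed FPKM of 28.3, 28.8 and 28.8 in CCI 1 to 3. It was 31.2, 33.3 and 32.1 in sham 1 to 3, and the groups did not overlap. The sum was 28.6 ± 0.308 in CCI and 32.2 ± 1.07 in sham (SD, n = 3). The summed general neuron markers were also lower in every CCI library than in any sham library. Of these 11 genes, however, 2 were higher and 2 lower at p under 0.05, and their median log2 fold change was −0.03. Summed large neuron markers stood at 3750 to 4071 CPM in CCI and 4802 to 5304 CPM in sham, and 1 of 7 was called lower, again Pvalb. At p under 0.05 in edgeR 0 of the 7 were higher and 3 were lower, beside 5.57% and 5.18% of all rows. Their median log2 fold change was −0.17. The part of either list in the sum of inward rectifiers was not tested.

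Kcnj4 encodes Kir2.3, a classical strong inward rectifier, on the minus strand of chromosome 7 from 120717375 to 120744602, and was the least abundant tested member of its subfamily. Its mean of 0.415 FPKM in CCI was under the filter and its mean of 0.755 FPKM in sham above it, so it entered the test only through the group where it was higher. Its FPKM was 0.50, 0.451 and 0.294 in CCI 1 to 3 and 0.581, 0.735 and 0.949 in sham 1 to 3. The CCI libraries were all below the sham libraries, although CCI 1 and sham 1 were close. Kcnj4 fell by 0.88 ± 0.30 (SE) on the log2 scale, a fold of 0.545, with an interval from −1.58 to −0.17 (adjusted p = 0.367, edgeR's quasi-likelihood test). The call was lost without CCI 3 (−0.68, adjusted p = 0.518, edgeR), without sham 3 (−0.67, adjusted p = 0.641, edgeR) and with limma on log2(FPKM + 0.1) (−0.73, adjusted p = 0.6) or log2(FPKM + 1) (−0.31, adjusted p = 0.607), and over the alternatives run the adjusted value ranged from 0.183 to 0.641. Its RefSeq start window, shown because this was the called member, lies on the minus strand at chr7:112954498-112954797 (GRCr8), with capitals as above.
Kcnj4: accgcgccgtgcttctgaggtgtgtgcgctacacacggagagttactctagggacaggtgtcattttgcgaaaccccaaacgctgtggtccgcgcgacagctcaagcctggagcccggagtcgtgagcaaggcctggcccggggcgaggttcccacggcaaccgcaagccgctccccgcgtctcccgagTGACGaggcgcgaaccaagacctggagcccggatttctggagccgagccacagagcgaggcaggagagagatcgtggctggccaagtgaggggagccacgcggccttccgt
This window held 1 shortened CRE and 30 CpG pairs, beside a median of 7 over all windows.

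The other Kir2 members were Kcnj12 (Kir2.2), Kcnj14 (Kir2.4) and Kcnj2 (Kir2.1). Kcnj12, the most abundant inward rectifier, had 5.72, 5.86 and 6.09 FPKM in CCI and 6.26, 6.63 and 6.16 FPKM in sham. The groups did not overlap, but the gap between CCI 3 and sham 3 was narrow. Its log2 fold change was −0.12 ± 0.06 (SE), and the interval from −0.27 to 0.02 lies within the fold threshold (adjusted p = 0.555, edgeR's quasi-likelihood test). Kcnj14 and Kcnj2 had mean levels of 1.21 and 0.915 FPKM with log2 fold changes of −0.20 and −0.07, and their groups overlapped.

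The G protein-gated Kir3 channels carry the potassium current that opioid, GABA-B and adenosine receptors open. Kcnj3 (Kir3.1) had 5.67, 3.90 and 5.30 FPKM in CCI and 5.75, 5.79 and 6.52 FPKM in sham. Kcnj6 (Kir3.2) had 2.27, 1.77 and 2.39 FPKM in CCI and 2.52, 2.63 and 2.49 FPKM in sham. For both genes all CCI libraries were below the sham libraries and CCI 2 was the lowest of all. The log2 fold changes of −0.30 ± 0.15 (SE, adjusted p = 0.558) and −0.27 ± 0.14 (SE, adjusted p = 0.582) did not pass in edgeR's quasi-likelihood test. Kcnj3 passed the unadjusted threshold without CCI 1 (−0.41, adjusted p = 0.525, edgeR), and its estimate was −0.15 without CCI 2. Kcnj5 (Kir3.4) and Kcnj9 (Kir3.3) had 1.34 and 1.02 FPKM on average, with log2 fold changes of −0.11 and 0.06. The 4 Kir3 genes summed to 10.4, 8.28 and 9.60 FPKM in CCI and 10.9, 11.2 and 10.7 FPKM in sham.

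Among ATP-sensitive channels, which couple metabolism to excitability, Kcnj11 (Kir6.2) had 1.88, 2.22 and 1.77 FPKM in CCI and 2.36, 2.19 and 2.38 FPKM in sham, with a log2 fold change of −0.25 (adjusted p = 0.57, edgeR's quasi-likelihood test). CCI 2 was slightly above sham 2, and the other CCI libraries were below all sham libraries. Without CCI 2 the estimate was −0.35 and passed the unadjusted threshold (adjusted p = 0.515, edgeR). Kcnj8 (Kir6.1), the vascular form, had 0.788 FPKM on average and a log2 fold change of −0.03. Kcnj10 (Kir4.1), which clears potassium in satellite glia, had 4.34, 3.74 and 3.24 FPKM in CCI and 3.47, 4.83 and 4.43 FPKM in sham. The groups overlapped, with a log2 fold change of −0.19 ± 0.16 (SE, adjusted p = 0.762, edgeR's quasi-likelihood test) and an interval from −0.57 to 0.20. The 8 satellite glia markers had 0 calls in edgeR and in DESeq2 and 0 at p under 0.05 in edgeR, with sums of 2300 to 2449 CPM in CCI and 2223 to 2419 CPM in sham. Kcnj13 (Kir7.1) and Kcnj15 (Kir4.2) had 2.75 and 1.34 FPKM on average, with log2 fold changes of 0.00 and −0.02. Kcnj15 ranged from 0.476 FPKM in CCI 1 to 2.12 FPKM in CCI 2. Kcnj13 lies within the gene Gigyf2 on the opposite strand, and whether counting used strand is not given in the sources used here.

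Of 8 tested calcium-activated channel genes 1 passed at p under 0.05, the BK subunit Kcnmb4, which rose (beside 5.57% of all rows). Estimates were below 0 in 4 of the 8, beside 49% of all rows. BK channels open with voltage and calcium and shape repolarisation. Kcnma1, the BK pore, had 6.02, 5.65 and 5.24 FPKM in CCI and 6.07, 5.26 and 5.19 FPKM in sham. The groups overlapped almost fully, and the log2 fold change of 0.02 had an interval from −0.18 to 0.22, within the fold threshold (adjusted p = 0.965, edgeR's quasi-likelihood test). With a library left out the estimate ranged from −0.03 to 0.09.

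Kcnmb4 encodes the neuronal BK beta4 subunit, which slows channel opening, on the minus strand of chromosome 7 from 59461799 to 59514939. Its FPKM was 5.76, 4.19 and 4.62 in CCI 1 to 3 and 3.09, 3.82 and 2.89 in sham 1 to 3. Every CCI library was above every sham library, with CCI 2 and sham 2 the closest pair. Kcnmb4 rose by 0.55 ± 0.18 (SE) on the log2 scale, a fold of 1.47, with an interval from 0.11 to 1.0 (adjusted p = 0.361, edgeR's quasi-likelihood test). It no longer passed the unadjusted threshold without CCI 1 (0.41, adjusted p = 0.58), without sham 1 (0.51, adjusted p = 0.533) or without sham 3 (0.48, adjusted p = 0.621) in edgeR, and over the alternatives run the adjusted value ranged from 0.161 to 0.621. Its start window is shown beside those of the two-pore members and lies on the minus strand at chr7:54005052-54005351 (GRCr8).
Kcnmb4: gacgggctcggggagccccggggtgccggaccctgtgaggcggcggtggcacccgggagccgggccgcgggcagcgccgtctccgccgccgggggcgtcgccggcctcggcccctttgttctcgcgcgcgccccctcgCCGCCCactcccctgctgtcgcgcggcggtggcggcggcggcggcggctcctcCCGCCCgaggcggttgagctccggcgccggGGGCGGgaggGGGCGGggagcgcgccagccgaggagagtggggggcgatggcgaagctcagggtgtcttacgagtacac
This window held 4 GC boxes, 80.7% G and C and 48 CpG pairs, where the Kcnk2 windows held no GC box.

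The ratio of Kcnmb4 to Kcnma1 FPKM was 0.957, 0.741 and 0.880 in CCI and 0.510, 0.727 and 0.557 in sham, given without a test because the numerator had already been seen to differ. CCI 2 and sham 2 were almost level in that ratio. Kcnmb2, the inactivating beta2 subunit, had 1.40, 1.19 and 1.19 FPKM in CCI and 1.04, 1.01 and 1.03 FPKM in sham. All CCI libraries were above the sham libraries, and the log2 fold change of 0.27 ± 0.15 (SE) did not pass (adjusted p = 0.596, edgeR's quasi-likelihood test). Kcnmb1, the smooth muscle beta1 subunit, had 0.578 FPKM on average and a log2 fold change of −0.10, and its row overlaps Kcnip1 on the opposite strand. Mural cell markers, which would carry Kcnmb1, had sums of 327.7 to 331.7 CPM in CCI and 286.6 to 318.3 CPM in sham, with 0 of 7 called in edgeR or DESeq2 and 2 higher at p under 0.05 in edgeR. The beta subunits together held 6.77 ± 0.790 FPKM in CCI and 4.94 ± 0.441 FPKM in sham (SD, n = 3), most of it Kcnmb4.

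The small- and intermediate-conductance channels SK and IK open to calcium through bound calmodulin and give the afterhyperpolarisation. Kcnn3 (SK3), the second most abundant member, had 9.24, 9.59 and 9.25 FPKM in CCI and 10.3, 9.33 and 10.2 FPKM in sham. The groups overlapped at CCI 2 and sham 2, and the log2 fold change was −0.10 ± 0.07 (SE, adjusted p = 0.68, edgeR's quasi-likelihood test). Kcnn1 (SK1), Kcnn2 (SK2) and Kcnn4 (IK) had 2.48, 2.63 and 2.44 FPKM on average, with log2 fold changes of −0.33, −0.24 and 0.01. With all libraries none of these 3 passed the unadjusted threshold in edgeR. Kcnn1 passed it without sham 3 (−0.52, adjusted p = 0.568, edgeR), and its estimate was −0.12 without sham 2. Kcnn4 is also known from macrophages and T cells, and its own FPKM was 2.08 to 2.93 in CCI and 2.05 to 3.04 in sham. Of the T cell list only Cd4, which rat macrophages also carry, was abundant enough to be tested, and it was called higher. Cd3e, Cd3d, Cd3g and Cd8a were at or below 0.261 FPKM in every library, and the macrophage sums stand above.

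Sodium-activated channels were abundant and close to level between groups. Kcnt1 (Slack) had 8.59, 8.49 and 9.04 FPKM in CCI and 9.62, 8.42 and 9.27 FPKM in sham, and Kcnt2 (Slick) had 2.72, 3.69 and 2.92 FPKM in CCI and 3.14, 3.07 and 2.89 FPKM in sham. Both overlapped between groups. The log2 fold changes were −0.08 and 0.02, with intervals of −0.24 to 0.08 and −0.28 to 0.32 that lie within the fold threshold (adjusted p = 0.747 and adjusted p = 0.972, edgeR's quasi-likelihood test).

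By mean FPKM over the 6 libraries the order ran from Kcnk1 at 12.6 through Kcnn3 at 9.64, Kcnt1 at 8.90, Kcnj12 at 6.12, Kcnma1 at 5.57 and Kcnj3 at 5.49. The ranges of Kcnn3 and Kcnt1 overlapped, as did those of Kcnj12 and Kcnma1 and those of Kcnma1 and Kcnj3, while all Kcnk1 values except 10.1 in CCI 1 were above the highest Kcnn3 value of 10.3. The next 6 were Kcnmb4, Kcnj10, Kcnk2, Kcnk18, Kcnt2 and Kcnk10, between 2.92 and 4.06 FPKM, and neighbours among them overlapped.

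**Figure D3:**
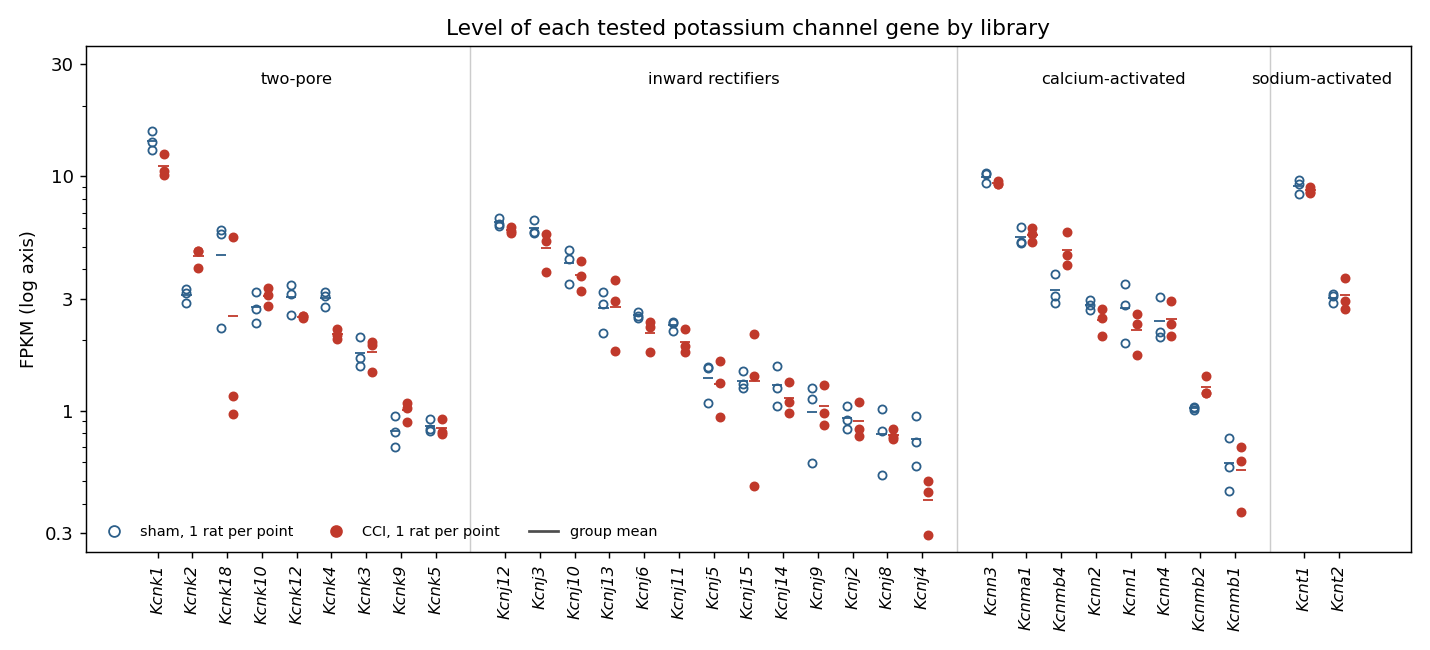
FPKM (y axis, log) of each of the 32 tested members (x axis, by family and falling level). Open blue points are the 3 sham rats, filled red points the 3 CCI rats and short lines the group means. Kcnk1 is the highest of all, the Kcnk18 points spread most, and most red and blue clusters lie at nearly the same height.

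The 9 weakly expressed members, under a mean of 0.5 FPKM, were not tested in the main fit. Kcnu1 had 0 counts in every library. Kcnj16 (Kir5.1), a partner of Kir4.1, had 12, 10 and 8 counts in CCI and 60, 19 and 34 counts in sham, with no overlap between groups, and with no filter its log2 fold change was −1.81 and passed the unadjusted threshold (adjusted p = 0.399, edgeR). Kcnk13 (THIK-1), known from microglia and macrophages, had 77, 78 and 78 counts in CCI and 70, 39 and 51 in sham. Kcnk6 (TWIK-2), also known from macrophages, had 14, 0 and 24 counts in CCI and 0 in each sham library. The other 5, Kcnj1, Kcnk7, Kcnk15, Kcnk16 and Kcnmb3, had between 0 and 86 counts in a library and overlapped between groups. Members also had 13 further rows under 8 of the symbols, of which 12 were tested and 1 had p under 0.05, a plus-strand row of Kcnk12 at a log2 fold change of 0.29 (adjusted p = 0.419, edgeR's quasi-likelihood test).

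Of 40 genes listed as partners of these channels, 37 were tested and 0 were called in edgeR or DESeq2. Over all rows edgeR called 2.57% higher and 1.26% lower, and DESeq2 called 1114 of 26663 rows in either direction. At these shares 0 of 37 is not read as a result about the partners. In edgeR 3 partners were higher and 3 lower at p under 0.05 (beside 5.57% and 5.18% of all rows), with a median log2 fold change of −0.03. The groups did not overlap in FPKM for 5 partners that were higher and 4 that were lower, beside 9.73% and 7.56% of all rows. Oprm1, the mu opioid receptor that opens Kir3 channels, had 1.93, 2.11 and 2.16 FPKM in CCI and 2.41, 3.11 and 2.75 FPKM in sham. Its groups did not overlap, and it fell by 0.43 on the log2 scale (SE 0.11, adjusted p = 0.263, edgeR's quasi-likelihood test). Gabbr2, a subunit of the GABA-B receptor, fell by 0.22 (adjusted p = 0.336), and Abcc8, the sulfonylurea receptor SUR1 that pairs with Kir6.2, fell by 0.38 (adjusted p = 0.399), both on the log2 scale in edgeR's quasi-likelihood test. The G protein gamma subunits Gng2 and Gng3 rose by 0.20 (adjusted p = 0.289) and 0.29 (adjusted p = 0.437), and the lipid kinase Pip5k1b, which makes the PIP2 that inward rectifiers need, rose by 0.54 (adjusted p = 0.239), also on the log2 scale in edgeR. These 6 genes were named after their values were seen.

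**Figure D4:**
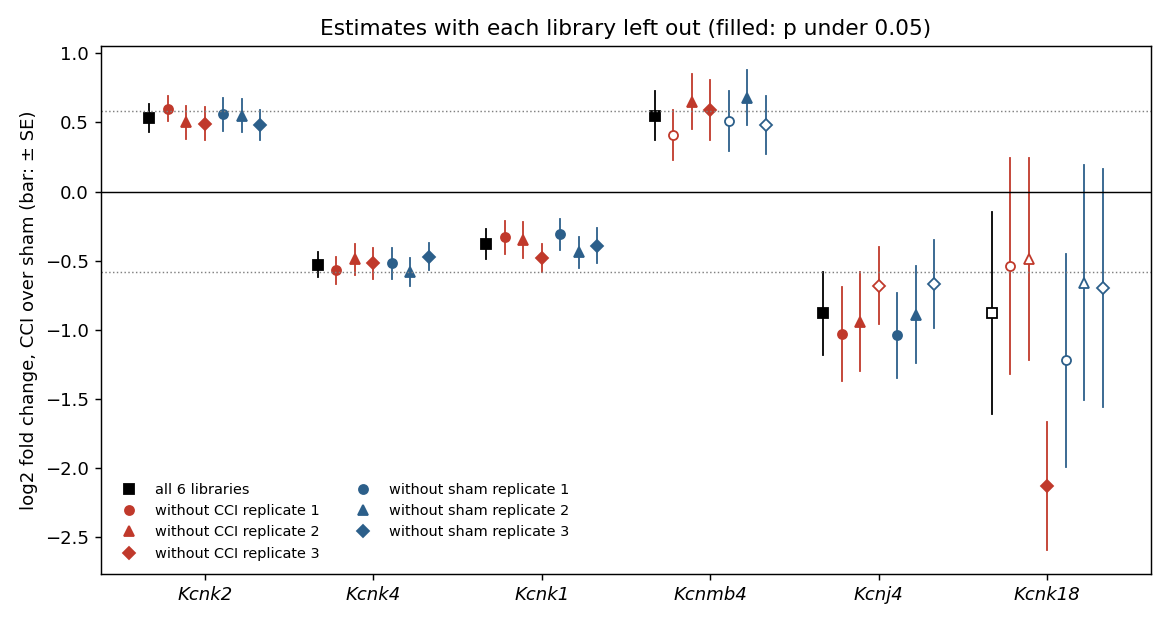
Log2 fold change of CCI over sham (y axis, bars ± SE) for 6 members (x axis) from all 6 libraries (black squares) and with each library left out (red for CCI, blue for sham), filled where p was under 0.05 and with dotted lines at ±0.58. Kcnk2, Kcnk4 and Kcnk1 stay filled throughout, Kcnmb4 and Kcnj4 lose their fill under 3 and 2 settings, and Kcnk18 is filled only without CCI 3.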

How the data were processed

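The deposited table gave counts and FPKM for 43350 gene rows in 6 libraries, 1 per rat, 3 CCI and 3 sham. The authors used ribosomal RNA depletion with dUTP strand marking and paired-end reads, and per the labels HISAT2 2.0 and StringTie 1.3.0. The counts are whole reads per row, deposited by the authors without normalization. The FPKM values, also deposited by the authors, divide the counts by library total and row length, and a count of 0 is listed at 0.0001. The strand setting of counting is not given in the sources used here. The labels speak of a pooled sample where the study's methods describe 1 rat per sample, so p-values measure the spread between these libraries. Rows without a symbol held 5.37% to 5.72% of the counts and were kept, and 0 sample columns were left unused.

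For symbols with several rows, protein-coding type decided first and the larger count second. Rows averaging 0.5 FPKM or more, 26663 in all, entered edgeR 4.0.16 (TMM, quasi-likelihood test, 2.52 prior degrees of freedom), checked on simulated data. A call needed an unadjusted p below 0.05 with a size of 0.58 or more on the log2 scale, and a second threshold was a Benjamini-Hochberg adjusted value below 0.05. In the text, rose and fell mark an unadjusted p below 0.05. Intervals cover 95% on 6.52 degrees of freedom. Alternatives were DESeq2 1.42.0, RLE factors, limma 3.58.1 on log2(FPKM + 0.1) or log2(FPKM + 1), a minimum of 1 FPKM, no filter, a replicate block and leaving out each library. Counts of members at p under 0.05 at any fold, under each alternative, were added after the data were seen. Full values were given for members called, at p under 0.05, without overlap between groups, or among the 12 most abundant. Members and lists were chosen with earlier results of these data known. Depth was 75423546 to 87615743 counts per library.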

Additional observations from a re-analysis of the deposited data

Results flagged for a closer look

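The 4 weakly expressed members below, all outside the tested rows, had a CCI median above every sham library. Kcnj16, also weakly expressed, was lower in CCI without overlap, as given above, and is not among these 4. Kcnk13 had a mean of 0.979 CPM in CCI and 0.635 CPM in sham, and with no filter its log2 fold change was 0.62 (adjusted p = 0.605, edgeR's quasi-likelihood test). Kcnk6 had 0.162 CPM in CCI, from 14 and 24 counts in CCI 1 and CCI 3 and 0 in CCI 2, and 0 counts in all sham libraries. Over all 6 libraries a count of 0 allows up to 0.0342 to 0.0398 CPM, depending on the library total. Kcnk16 had 0.223 CPM in CCI and 0.102 CPM in sham, and Kcnmb3 had 0.177 CPM and 0.0884 CPM, and their groups overlapped. Groups of 3 were too small for a search for outlying libraries.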

How the results depend on the processing

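Of 220 values of 17 members under 13 alternatives, 204 kept their direction and side of the call threshold, 5 were weaker, 6 stronger and 5 changed sign. Members called higher numbered 0 with all libraries, 1 with no filter (Kcnk6) and 0 to 1 with a library left out (Kcnk2 without CCI 1, Kcnmb4 without CCI 2, CCI 3 or sham 2). Members called lower numbered 1, against 0 with limma on log2(FPKM + 0.1) or log2(FPKM + 1), 0 with a minimum of 1 FPKM, which removes Kcnj4, 2 with no filter (Kcnj4 and Kcnj16), and 0 to 2 with a library left out. Without CCI 3 the 1 lower call was Kcnk18 and not Kcnj4, and without sham 2 the 2 were Kcnj4 and Kcnk4. DESeq2 gave 2 members at an adjusted p under 0.05. Partner calls ranged from 0 to 1 with a library left out. All rows called fell from 1022 to 571 with limma on log2(FPKM + 1). Members higher at p under 0.05 ranged from 1 to 2 with a library left out. Members lower at p under 0.05 numbered 3, from 3 to 4 with a library left out, 2 with either limma fit or a minimum of 1 FPKM and 4 with no filter. Among these 17 members the Kcnma1 and Kcnt2 estimates changed sign, ranging from −0.03 to 0.09 and from −0.12 to 0.11. Members outside the 17 also changed sign with a library left out, among them Kcnj2, Kcnj5, Kcnj8, Kcnj9, Kcnj13, Kcnj15, Kcnk3, Kcnmb1 and Kcnn4. The widest of these ranges was that of Kcnj15, from −0.52 to 0.38. For other changes the cause was not tested.

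No sign of pairing by replicate number was seen, with correlations of −0.0112, −0.0261 and −0.0745 between same-numbered libraries. No library correlated best with the one of its own number in the other group. The correlations were of deviations from group means of 3 libraries, so weak pairing could go unseen. With the replicate block 0 members were called lower, Kcnj4 being lost, and 1 member was higher at p under 0.05, Kcnmb4 being lost, while Kcnn1 passed that threshold. Depth limits the 9 weakly expressed members.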
